A study of Mus musculus with 4 samples.

Results

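Endothelial cells (ECs), the cells that line blood vessels, were sorted from the dura mater, the tough outer layer of the meninges, and from the brain parenchyma (hereafter, brain), and their polyadenylated transcripts were counted at the 3′ end. The transcripts described here are those of 42 enzymes of glucose use, taken by gene symbol from the 23282 lines of the count tables. They cover glycolysis with its regulators, the fates of pyruvate, the pentose phosphate branch and glycogen turnover, and glucose transporters do not belong to them. Each tissue gave 2 libraries, called brain EC 1 and 2 and dura mater EC 1 and 2, all from C57BL/6J mice of 8 weeks for which the labels name no injury, treatment or transgene. ECs were gated as CD31+ CD45- TER-119-, and only the brain cells passed over CD31 magnetic beads before the sort, so that this step cannot be told apart from the tissue. The sources used here do not say how many mice entered a library or whether the libraries came from separate mice, and p-values therefore measure the spread between these libraries, which may be technical.

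Glycolysis splits glucose into pyruvate, which is either reduced to lactate or passed to the mitochondria through pyruvate dehydrogenase. ECs are known to draw much of their ATP from glycolysis even when oxygen is plentiful. The PFKFB enzymes set the pace, since they make the sugar bisphosphate that activates phosphofructokinase, and Pfkfb3 is the PFKFB best known from sprouting vessels. The pyruvate dehydrogenase kinases (PDKs) switch pyruvate dehydrogenase off, the pentose phosphate branch provides NADPH and ribose, and glycogen stores glucose units. Hypoxia-inducible factor (HIF), the transcription factor of low oxygen, binds a short core sequence, and Pdk1, Ldha and Pfkfb3 are among its textbook targets.

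The promoters of 4 enzymes are shown because the results that follow turn on these genes. They belong to Pfkfb3, Pdk1 and Gys1, which had some of the smallest p-values among the 42 enzymes, and to Ldha, which had the highest count of them in 3 of the 4 libraries. Sequences are from RefSeq on build GRCm38.p6, run 5′ to 3′ on the gene's strand from 250 bases before the annotated start to 50 after it, and have the HIF core (ACGTG or GCGTG on either strand, with CACGTG read on both) in capitals. The windows are chr2:11553880-11554179 on the minus strand for Pfkfb3, chr2:71872974-71873273 on the plus strand for Pdk1, chr7:45434589-45434888 on the plus strand for Gys1 and chr7:46845554-46845853 on the plus strand for Ldha.
Pfkfb3: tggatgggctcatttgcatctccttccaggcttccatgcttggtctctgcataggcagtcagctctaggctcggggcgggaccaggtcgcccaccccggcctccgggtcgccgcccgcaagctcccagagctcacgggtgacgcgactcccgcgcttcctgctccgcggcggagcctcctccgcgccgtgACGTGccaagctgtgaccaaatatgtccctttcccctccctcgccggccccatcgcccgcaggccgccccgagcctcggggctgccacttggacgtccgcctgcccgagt
Pdk1: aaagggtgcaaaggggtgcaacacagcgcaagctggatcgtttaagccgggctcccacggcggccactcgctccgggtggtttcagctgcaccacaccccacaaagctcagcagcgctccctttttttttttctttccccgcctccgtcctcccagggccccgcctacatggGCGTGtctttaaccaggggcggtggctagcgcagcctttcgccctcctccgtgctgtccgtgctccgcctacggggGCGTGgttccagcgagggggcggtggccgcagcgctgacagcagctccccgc
Gys1: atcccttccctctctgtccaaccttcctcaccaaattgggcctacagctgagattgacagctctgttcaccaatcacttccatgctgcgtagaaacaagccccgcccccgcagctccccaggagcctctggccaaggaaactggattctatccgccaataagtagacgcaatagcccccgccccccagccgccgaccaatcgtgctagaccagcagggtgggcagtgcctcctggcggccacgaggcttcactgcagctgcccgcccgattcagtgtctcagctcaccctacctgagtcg
Ldha: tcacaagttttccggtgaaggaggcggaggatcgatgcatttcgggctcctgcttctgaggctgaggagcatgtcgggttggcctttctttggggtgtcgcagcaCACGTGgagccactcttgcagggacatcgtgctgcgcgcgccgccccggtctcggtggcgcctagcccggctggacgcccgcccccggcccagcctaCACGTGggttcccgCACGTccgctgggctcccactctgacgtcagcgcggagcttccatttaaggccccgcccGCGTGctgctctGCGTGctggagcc

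The core was found at 1 position in the Pfkfb3 window, at 2 in that of Pdk1, at 7 in that of Ldha and at 0 in that of Gys1. The window of Pgm1 is not shown and held the core at 2 positions, although its unadjusted edgeR p was below that of Gys1 (0.0439 against 0.0498). All 42 enzymes had a listed promoter, and where a gene had several starts the one nearest its annotated 5′ end was used. Of these windows 31 (73.8%) held the core at least once, against 14380 of all 32851 windows of this length (43.8%). The latter include every listed start of a gene, so the sets were not chosen alike. The core stood at 2 or more positions in 18 of the 42 (42.9%) and in 6782 of all windows (20.6%). A match describes the letters only, and binding was not measured.

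Library totals ran from 13518973 to 16096203 counts, and 9350 to 11803 symbols had a count. The libraries of one tissue differed from each other far beyond sampling noise (chi-square over degrees of freedom 362.9 in brain, 229.7 in dura mater). Of all lines that reached 64 counts in at least one brain library, 31.3% stood at 7 or fewer in the other, and for dura mater this share was 30.7%. Pan-endothelial markers were present in every library and took 1.02 to 1.22% of the counts in brain and 0.799 to 1.06% in dura mater, with 9 of 10 not passing the edgeR test and only Cldn5, a tight-junction gene of the blood-brain barrier, lower in dura mater. Red cell genes, mainly globins, took 1.81 to 2.47% in brain and 0.0796 to 0.148% in dura mater, and Slc4a1 was at 0 counts in all libraries. Fibroblast genes took 0.217 to 0.254% in brain and 1.12 to 1.14% in dura mater, almost all of it Mgp, which was higher in dura mater (edgeR adjusted p = 0.0248). Col1a1, Col1a2 and Dcn were at 4 to 42 counts in brain and 759 to 1913 in dura mater, whereas Lum and Pdgfra did not exceed 4 counts. The shares were 0.0622 to 0.103% and 0.0689 to 0.113% for mural genes, 0.00484 to 0.00512% and 0.00304 to 0.00507% for leukocyte genes, and 0.00525 to 0.00767% and 0.0181 to 0.0434% for astrocyte genes. Of the mural genes Acta2 had 4979 and 10644 counts in brain and 7580 and 3663 in dura mater. Kcnj8 had 0 and 0 in brain and 468 and 410 in dura mater, and Cspg4 0 and 1 against 263 and 65. The 9 mural genes had a median log2 fold change, dura mater over brain, of 1.6, and 0 were called. Of the leukocyte genes Ptprc did not exceed 4 counts and Cd3e was at 0, while Cd68 had 4 and 3 counts in brain and 550 and 441 in dura mater, and Csf1r and C1qa reached 646 and 436 in a single brain library each. Of the astrocyte genes Gja1 had 743 and 103 counts in brain and 3641 and 2460 in dura mater. S100b had 9 and 949 against 0 and 294, and Aqp4 was at 0. The astrocyte list includes Aldoc and the neuronal list Eno2, which are among the 42 enzymes. Most neuronal counts were of Stmn2, with 2042 and 2239 in brain and 1887 and 2473 in dura mater. Neuronal genes took 0.0144 to 0.0163% and 0.0160 to 0.0194%, oligodendrocyte genes 0.0005 to 0.0102% and 0.00485 to 0.0118%, and platelet genes 6.5e-05 to 0.0131% and 0.00338 to 0.0120%. The part of these admixtures in the enzyme values was not tested. In bulk libraries, fewer cells of a type and less RNA per cell cannot be told apart.

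No enzyme of the 42 passed the main test of dura mater against brain ECs, edgeR's quasi-likelihood test with Benjamini-Hochberg adjustment over 9347 genes. Of the 42, 41 had a count, 32 had enough counts to be tested, and 10 (Hk2, Hk3, Pfkfb1, Pfkfb4, Aldoc, Eno1, Eno3, Pdk4, Rpe and Pgm2) did not. At an adjusted p under 0.05, 0 of 32 were called, beside 0.610% of all genes tested. At an unadjusted p under 0.05, 4 of 32 (Pfkfb3, Pdk1, Pgm1 and Gys1) were counted, beside 10% of all genes. DESeq2 called 3 of 32 (Pdk1, Pgm1 and Gys1), beside 8.63% of all genes, and edgeR with its newer dispersion estimate called 1 (Pfkfb3), beside 3.26%.

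The enzymes' log2 fold changes, given throughout as dura mater over brain, had a median of 0.55 with quartiles of -0.27 and 2.90, and 22 of 32 were positive (68.8%). Over all genes tested the median was -0.01 with quartiles of -1.03 and 1.24, and 49.8% were positive. Without brain EC 1 the medians were 1.10 for the enzymes and 1.03 for all genes. The median of the enzymes is the same with Pfkfb2, Pdk1 and Pgm1, which had no count in brain, set to their lower bounds. These bounds, the lowest of them 52.0-fold, lie far above the median, so they could not change it, and this adds no support. Both dura mater libraries lay above both brain libraries in CPM (counts scaled to a common library size by TMM) for 12 of the 32 enzymes, beside 26.2% of all genes, and below them for 4 (Pgam1, Pkm, Ldha and Gbe1), beside 16.9%. The 42 enzymes together took 0.231 and 0.242% of all counts in brain EC 1 and 2 and 0.289 and 0.250% in dura mater EC 1 and 2, which is 0.237 ± 0.00826% against 0.269 ± 0.0275% (SD, n = 2). A two-sided exact permutation test on these shares gave p = 0.333, the smallest that 2 against 2 allows. In CPM the sums overlapped, at 2303 and 2531 in brain and 2908 and 2461 in dura mater. The total moved little while single enzymes differed widely, as the plot of levels in each library shows.

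Some enzymes were read steadily and others in a patchy way. Of the 32, 18 held 64 or more counts in all 4 libraries, beside 45.6% of all genes tested, namely Hk1, Gpi1, Pfkl, Pfkfb3, Aldoa, Gapdh, Pgk1, Pgam1, Pkm, Ldha, Pdha1, Pdhb, Pdk2, Pgls, Rpia, Tkt, Taldo1 and Pygb. Of these 18, 17 lay within 2-fold between the tissues and Pfkfb3 did not, and of all 4266 genes at that level 66.5% lay within 2-fold. Their median log2 fold change was 0.20, beside -0.16 for the 4266. Pfkfb2, Pdk1, Pgm1 and Gys1 stood at 7 counts or fewer in both brain libraries and at 64 or more in both dura mater libraries (4 of 32, beside 8.14% of all genes). The reverse pattern was held by 0 of 32, beside 0.503%. Presence was often split between the libraries of one tissue: 6 of the 26 enzymes that reached 64 counts in brain did so in one library with 7 or fewer in the other (Pfkp, Tpi1, Eno3, Ldhb, G6pdx and Pgd), as did 8 of 38 in dura mater (Hk2, Hk3, Pfkfb4, Aldoc, Eno2, Rpe, Pgm2 and Gbe1). Over all lines these shares were the 31.3% and 30.7% given above.

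**Figure D1:**
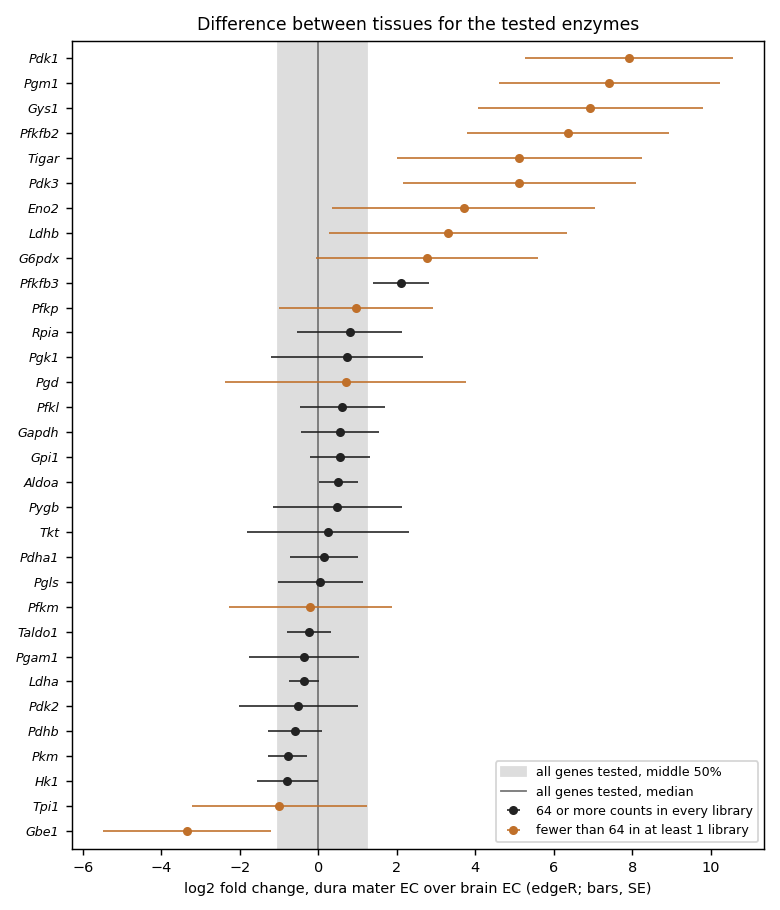
Log2 fold change of the 32 tested enzymes, dura mater ECs over brain ECs, by edgeR, with bars of 1 SE. The grey band holds the middle 50% of all genes tested, from -1.03 to 1.24, and the enzymes with 64 or more counts in all libraries stay between -0.79 and 0.80 except Pfkfb3 at 2.10.

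The step that makes the activator of phosphofructokinase showed the largest summed difference. Pfkfb3 (chr2:11471433-11554077, minus strand, GRCm38) had 914 and 1516 counts in brain EC 1 and 2 and 7862 and 2908 in dura mater EC 1 and 2. Both dura mater libraries were above both brain libraries, and dura mater EC 1 was far above the other. The level was 88.8 ± 36.4 CPM in brain and 382.2 ± 288.6 CPM in dura mater (SD, n = 2). This is 2.10 on the log2 scale (SE 0.717, edgeR adjusted p = 0.451). Without dura mater EC 1 the log2 fold change was 0.86 (edgeR adjusted p = 0.992), without brain EC 2 it was 2.56 (edgeR adjusted p = 0.00238), and with the newer dispersion estimate the adjusted p of edgeR was 0.0481. Pfkfb2, a PFKFB known from heart, was at 0 in the brain libraries, where 3 counts would be 0.207 and 0.227 CPM, and at 194 and 132 counts in dura mater (11.3 ± 4.51 CPM). The dura mater mean was thus at least 52.0-fold higher with brain taken at 3 counts, a bound that leaves out the spread in dura mater. The fitted log2 fold change was 6.36 (SE 2.57, edgeR adjusted p = 0.466). Pfkfb1, known from liver, had a single count in brain EC 2 and none elsewhere, and Pfkfb4 had 89 counts in dura mater EC 1 and 0 in the other 3 libraries. Tigar, a phosphatase that removes the same activator, had 0 and 30 counts in brain and 848 and 414 in dura mater. Both dura mater libraries lay above, at 44.3 ± 26.8 CPM against 1.13 ± 1.60 CPM (log2 fold change 5.13, SE 3.13, edgeR adjusted p = 0.692). The log2 fold change was 8.36 without brain EC 2, the only brain library with a Tigar count. It was 4.18 without brain EC 1, 4.19 without dura mater EC 1 and 5.61 without dura mater EC 2. Pfkfb3 and Pfkfb2, which make the activator, and Tigar, which removes it, were thus all counted more often in both dura mater libraries, none past the main test. Pfkfb3 made up all 914 PFKFB counts in brain EC 1, 99.9% in brain EC 2 and 96.5 and 95.7% in dura mater, with Wilson intervals (95%) of 96.1 to 96.9% and 94.9 to 96.3% in the latter.

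Hexose phosphorylation rested on Hk1 in all libraries. Hk1, the hexokinase of brain and red cells, had 1177 and 3452 counts in brain and 1070 and 1927 in dura mater, and the groups overlapped. Its log2 fold change was -0.79 (SE 0.770, edgeR adjusted p = 0.968). Hk2, the hexokinase of muscle and of fast-growing cells, had 2, 3 and 1 counts in brain EC 1, brain EC 2 and dura mater EC 1 and 87 in dura mater EC 2. Hk3, known from myeloid cells, had 1 and 0 counts in brain and 91 and 2 in dura mater. Each of these exceeded 3 counts in a single dura mater library, and the share of Hk1 among hexokinase counts was 99.7 and 99.9% in brain and 92.1 and 95.6% in dura mater. Gpi1, which turns glucose-6-phosphate into fructose-6-phosphate, had 970 and 1086 counts in brain and 1421 and 1836 in dura mater, with no overlap, at 74.5 ± 10.7 and 109.2 ± 4.59 CPM.

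Phosphofructokinase, the committed step, was summed over its 3 genes at 146.1 ± 6.83 CPM in brain and 220.0 ± 51.4 CPM in dura mater, but its make-up changed from library to library. Pfkl, the liver-type subunit, had 335 and 1553 counts in brain and 760 and 2582 in dura mater (log2 fold change 0.61, SE 1.09, edgeR adjusted p = 1.00). Pfkm, the muscle type, had 455 and 440 counts in brain and 713 and 44 in dura mater (log2 fold change -0.21, SE 2.08, edgeR adjusted p = 1.00). Pfkp, the platelet type, had 1258 and 4 counts in brain and 990 and 1560 in dura mater (log2 fold change 0.96, SE 1.97, edgeR adjusted p = 1.00). The tissues overlapped for each subunit. Pfkp was 61.4% of phosphofructokinase counts in brain EC 1 and 0.20% in brain EC 2, where Pfkl was 77.8%, and these brain libraries differed more than the tissue means of Pfkp did (30.8% in brain and 38.7% in dura mater). Without brain EC 1 the log2 fold change of Pfkp was 7.54 (edgeR adjusted p = 0.00584), and without brain EC 2 it was -0.10 (edgeR adjusted p = 0.966).

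**Figure D2:**
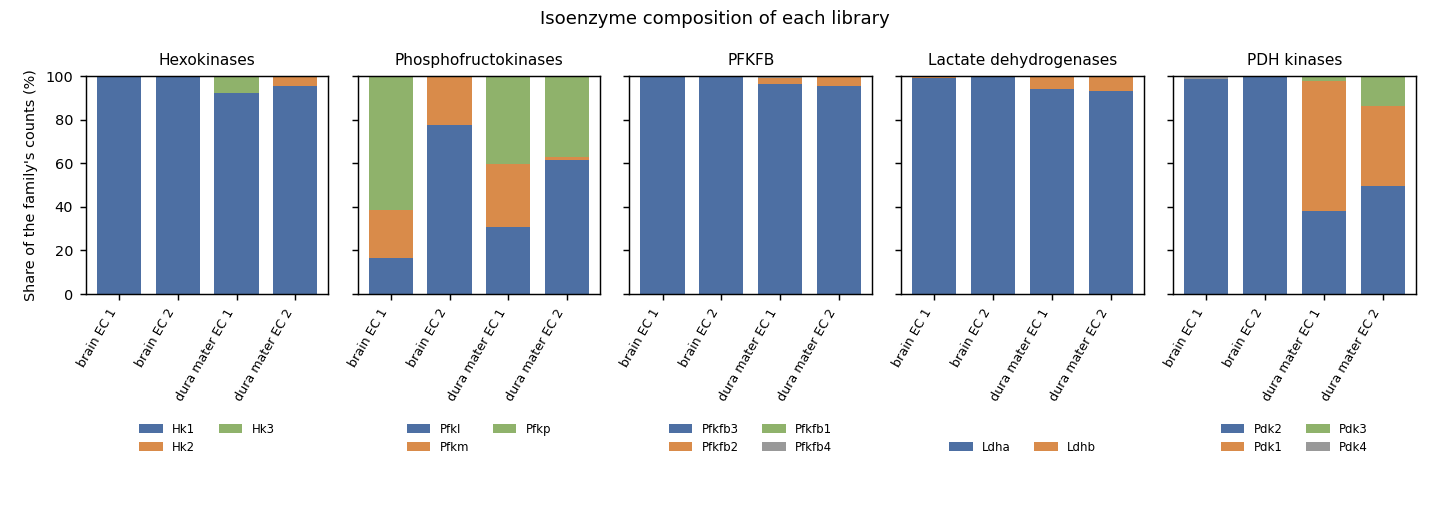
Share of each isoenzyme in the counts of its family, in percent, for 5 families in the 4 libraries, each bar summing to 100%. Pdk2 fills the brain bars of the PDK panel at 98.7 and 99.6%, whereas Pdk1 takes 59.7 and 36.9% of the dura mater bars, and the phosphofructokinase panel differs as much within a tissue as between tissues.

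The aldolase and triose steps were summed at 302.3 ± 33.7 CPM in brain and 398.3 ± 16.2 CPM in dura mater. Aldoa, the main aldolase, had 2579 and 1958 counts in brain and 2556 and 4486 in dura mater, at 163.0 ± 21.2 and 232.7 ± 59.5 CPM. After scaling, both dura mater libraries lay just above both of brain (log2 fold change 0.51, SE 0.503, edgeR adjusted p = 0.968). Aldoc, an aldolase of brain tissue and a marker of astrocytes, had 3, 5 and 2 counts in brain EC 1, brain EC 2 and dura mater EC 2 and 256 in dura mater EC 1. That library also held the highest counts of the astrocyte genes Slc1a3 (915, beside 1, 1 and 74) and Gfap (189, beside 3, 0 and 0), whereas Aqp4, Aldh1l1 and S100b were at 0 there and S100b had 949 counts in brain EC 2 and 294 in dura mater EC 2. Their part in the Aldoc count was not tested. Tpi1, triose phosphate isomerase, had 1571 and 6 counts in brain and 381 and 426 in dura mater, so that the brain libraries enclosed those of dura mater. Gapdh, which forms NADH, had 411 and 1281 counts in brain and 1216 and 1519 in dura mater, and Pgk1, the first ATP-yielding kinase, had 163 and 434 in brain and 778 and 256 in dura mater. The groups overlapped for both. The Gapdh count is uncertain, since 87 other genes, 85 of them pseudogenes, match the last 300 bases of its transcript at 97% identity or more. The same holds to a lesser degree for Gpi1, Aldoa, Tpi1, Pkm, Ldha and Ldhb, whose ends match 1 or 2 other genes each.

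Lower glycolysis and lactate formation leaned the other way, with 240.7 ± 46.7 CPM in dura mater against 380.9 ± 118.7 CPM in brain for the former. This sum lacks the main enolase, since Eno1 was at 0 counts and the Eno1b lines described with it are not part of the 42. Pkm, pyruvate kinase, had 3285 and 5383 counts in brain and 2699 and 2752 in dura mater. The tissues did not overlap, dura mater being lower at 184.9 ± 23.1 against 316.8 ± 127.5 CPM (log2 fold change -0.78, SE 0.500, edgeR adjusted p = 0.736). Pgam1, phosphoglycerate mutase, had 605 and 762 counts in brain and 515 and 634 in dura mater, and in CPM the tissues did not overlap (49.7 ± 11.2 and 38.6 ± 0.305). Ldha (chr7:46841475-46855627, plus strand), which makes lactate, had 6740 and 5649 counts in brain and 5186 and 4952 in dura mater, the highest of the 42 enzymes in 3 of the 4 libraries. It was lower in both dura mater libraries, at 345.0 ± 59.0 against 446.0 ± 26.9 CPM (log2 fold change -0.37, SE 0.380, edgeR adjusted p = 0.974). Ldhb, the heart-type subunit, had 64 and 1 counts in brain and 323 and 373 in dura mater, at 2.24 ± 3.07 and 23.5 ± 0.875 CPM. Both dura mater libraries were above both of brain (log2 fold change 3.31, SE 3.03, edgeR adjusted p = 0.947), with 6.75 without brain EC 1 and 2.31 without brain EC 2. The share of Ldha in lactate dehydrogenase counts was 99.1 and 99.98% in brain and 94.1 and 93.0% in dura mater. Lower Ldha and Pkm and higher Ldhb in dura mater kept their direction under every alternative run, and none passed the main test. Since the tissues did not overlap for these genes, leaving out a library could hardly turn their direction, so this adds no support.

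Enolase could not be followed by its usual symbol. Eno1 was at 0 counts in all 4 libraries, while 2 lines named Eno1b, chosen after their values were seen, held 42, 269, 169 and 523 counts and 40, 279, 152 and 580 counts in brain EC 1, brain EC 2, dura mater EC 1 and dura mater EC 2. Eno1b matches the last 300 bases of Eno1 at 97% identity or more, so the counts of these genes are uncertain. Eno2, the neuronal enolase, had 30 and 4 counts in brain and 456 and 4 in dura mater. Eno3, the muscle enolase, had 385 counts in brain EC 1 and 0 in the other 3 libraries. Each of them was thus high in a single library.

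The pyruvate dehydrogenase kinases differed in make-up between the tissues. The subunits of the complex itself overlapped between the tissues, with 886 and 1232 counts in brain and 1346 and 1145 in dura mater for Pdha1, and 2675 and 1767 in brain and 1929 and 1082 in dura mater for Pdhb. Pdk2, the kinase of most tissues, had 901 and 489 counts in brain and 245 and 838 in dura mater, with overlap (log2 fold change -0.51, SE 1.52, edgeR adjusted p = 1.00). Pdk1 (chr2:71873224-71903858, plus strand) was at 0 in the brain libraries and at 383 and 627 counts in those of dura mater. The mean level in dura mater, 33.5 ± 6.96 CPM, was at least 154-fold higher with brain taken at 3 counts. The fitted log2 fold change was 7.92 (SE 2.65, edgeR adjusted p = 0.466, DESeq2 adjusted p = 0.00441, range over all alternatives 0.000767 to 0.88). Pdk3 had 0 and 2 counts in brain and 14 and 223 in dura mater (log2 fold change 5.13, SE 2.97, edgeR adjusted p = 0.645, and 2.41 without dura mater EC 2), and Pdk4, known from fasting, had 12 and 0 in brain and 0 and 9 in dura mater. Pdk1 was 59.7 and 36.9% of PDK counts in dura mater, with Wilson intervals of 55.8 to 63.4% and 34.7 to 39.3%. In brain it was 0 of 913 and 0 of 491 counts, with upper Wilson limits of 0.419 and 0.776%. Pdk2 was 98.7 and 99.6% in brain and 38.2 and 49.4% in dura mater. For both shares the libraries of the tissues did not overlap, and a two-sided exact permutation test gave p = 0.333, the smallest that 2 against 2 allows (0.666 adjusted over 14 isoenzyme shares). Both are parts of the same sum, so a higher share of Pdk1 lowers that of Pdk2, and they are not separate results. Intervals and limits from counts cover counting error only, and shares are of counts without scaling by transcript length, since the kit reads the 3′ end.

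The oxidative pentose phosphate enzymes were read unevenly. G6pdx, glucose-6-phosphate dehydrogenase, the entry to the branch, had 1 and 136 counts in brain and 679 and 347 in dura mater. Both dura mater libraries were above both of brain, at 35.9 ± 20.8 against 5.17 ± 7.22 CPM (log2 fold change 2.76, SE 2.83, edgeR adjusted p = 0.974). This value was 7.45 without brain EC 2, 1.76 without brain EC 1 and 1.87 without dura mater EC 1. Pgls, the lactonase that follows, had 2058 and 399 counts in brain and 1802 and 712 in dura mater, and Pgd, which follows it, had 5 and 178 in brain and 10 and 355 in dura mater. For these the libraries of one tissue differed more than the tissues did. In the non-oxidative part Rpia, the ribose isomerase, had 428 and 528 counts in brain and 572 and 1274 in dura mater, without overlap in CPM. Rpe, the epimerase, had 2 and 1 in brain and 5 and 113 in dura mater. Tkt and Taldo1, the transketolase and transaldolase that link the branch back to glycolysis, had 232 and 365 and 4180 and 2173 counts in brain, and 216 and 582 and 1824 and 4044 in dura mater, with overlap. The sum of the non-oxidative enzymes was 282.9 ± 72.3 CPM in brain and 281.7 ± 122.4 CPM in dura mater.

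Among the glycogen enzymes the synthase and the branching enzyme stood on opposite sides. Gys1 (chr7:45434844-45456619, plus strand), the glycogen synthase of most tissues other than liver, had 1 and 3 counts in brain and 704 and 283 in dura mater. No overlap was left, and the summed counts of 987 and 4, each scaled by the TMM-adjusted library sizes, had a ratio of 230.1 with a counting interval of 89.6 to 846.0. The log2 fold change was 6.93 (SE 2.86, edgeR adjusted p = 0.466, DESeq2 adjusted p = 0.0154, range over all alternatives 0.00161 to 0.995). Pgm1, phosphoglucomutase, had 0 and 0 counts in brain and 525 and 131 in dura mater. The dura mater mean was at least 109-fold higher with brain taken at 3 counts, though dura mater EC 1 and 2 differed (39.2 and 8.02 CPM). For Pgm1 the log2 fold change was 7.41 (SE 2.81, edgeR adjusted p = 0.466, DESeq2 adjusted p = 0.0244, range over all alternatives 0.00763 to 0.993). Without dura mater EC 1 its log2 fold change was 5.82. Pgm2 had 3 and 3 counts in brain and 0 and 218 in dura mater. The names Pgm1 and Pgm2 were exchanged between annotation versions, so it cannot be told which of the paired genes each line holds. Gbe1, the branching enzyme, had 533 and 2297 counts in brain and 2 and 333 in dura mater. It was lower in both dura mater libraries, at 10.3 ± 14.3 against 105.2 ± 96.8 CPM (log2 fold change -3.34, SE 2.14, edgeR adjusted p = 0.733). Without brain EC 1 its log2 fold change was -4.15 (edgeR adjusted p = 0.0155), without brain EC 2 it was -1.93 (edgeR adjusted p = 0.808), and without dura mater EC 2 it was -8.50 (edgeR adjusted p = 0.235). Pygb, the brain-type phosphorylase that breaks glycogen down, had 511 and 336 counts in brain and 339 and 968 in dura mater, with overlap. Exons of another gene lie on the opposite strand over 6.47% of the exon length of Gys1 and 13.6% of that of Pgm1 and of G6pdx, and reads of such pairs cannot be told apart if the counting ignored strand.

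**Figure D3:**
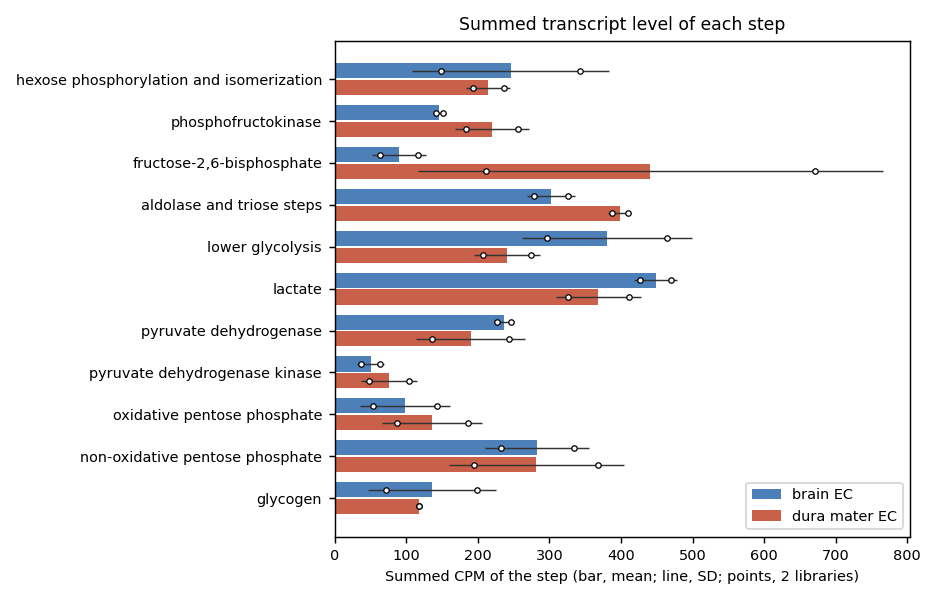
Summed CPM of the enzymes of each step, with bars for the mean of 2 libraries, lines for the SD and points for the libraries. The fructose-2,6-bisphosphate step runs from 90.0 to 441.1 CPM on average with 670.6 CPM in dura mater EC 1, and the glycogen sum differs little, at 135.9 and 117.7 CPM.

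Summed by step, the dura mater means were 4.90 times those of brain for the PFKFB enzymes with Tigar, 1.52 times for the PDKs, 1.51 times for phosphofructokinase, 1.39 times for the oxidative pentose phosphate enzymes and 1.32 times for the aldolase and triose steps. They were 0.632 times those of brain for lower glycolysis, 0.806 times for pyruvate dehydrogenase, 0.822 times for lactate dehydrogenase, 0.866 times for glycogen, 0.872 times for hexose phosphorylation and 0.996 times for the non-oxidative pentose phosphate enzymes. The 2 libraries of each tissue did not overlap for the PFKFB enzymes, phosphofructokinase, the aldolase and triose steps, lower glycolysis and lactate dehydrogenase, and did for the other steps. For each of the former, a two-sided exact permutation test on the shares of counts gave p = 0.333, the smallest that 2 against 2 allows. Lower glycolysis was at 297.0 CPM in brain EC 1, of which Eno3 gave 26.6. In dura mater EC 1 it was at 273.7 CPM, of which Eno2 gave 34.0.

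Genes beside these enzymes were read from 4 further lists. Of 16 glucose and monocarboxylate carriers, 8 were tested, 0 were higher and 1 was lower in dura mater, with a median log2 fold change of -2.58. The one was Slc2a1, the glucose carrier of the blood-brain barrier, with 172343 and 135461 counts in brain and 20064 and 26807 in dura mater. Its log2 fold change was -2.82 (SE 0.248, edgeR adjusted p = 0.0232). Of 22 regulators and targets of HIF, 21 were tested and 0 were called in either direction, with a median of -0.23. Those with the smallest p went both ways: Ndrg1 had 27261 and 30904 counts in brain and 7344 and 13368 in dura mater (edgeR adjusted p = 0.16), Bnip3 had 1892 and 2816 in brain and 385 and 734 in dura mater (edgeR adjusted p = 0.466), and Vegfa had 4 and 5 in brain and 1294 and 942 in dura mater (edgeR adjusted p = 0.291).

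Of 49 other isoenzymes of the same pathways, 22 were tested, 0 were called in either direction and 11 were at 0 counts in all libraries, with a median log2 fold change of 1.53. Ldhd, which oxidizes D-lactate, had 947 and 819 counts in brain and 0 and 0 in dura mater (edgeR adjusted p = 0.282). H6pd, the pentose phosphate dehydrogenase of the endoplasmic reticulum, had 1 and 0 counts in brain and 872 and 152 in dura mater (edgeR adjusted p = 0.466), and Pcx, pyruvate carboxylase, had 0 and 0 in brain and 301 and 167 in dura mater (edgeR adjusted p = 0.466). Of 22 genes of the tricarboxylic acid cycle and its side reactions, 20 were tested and 0 were called in either direction, with a median of 0.37. Me1, malic enzyme, had 2 and 1 counts in brain and 696 and 327 in dura mater, Got1, an aspartate aminotransferase, had 1 and 0 in brain and 342 and 279 in dura mater, and Fh1, fumarase, had 4 and 94 in brain and 1723 and 373 in dura mater, with adjusted p of 0.466, 0.466 and 0.578 by edgeR.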

How the data were processed

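QuantSeq libraries were made from 500 ng of total RNA per sample and read on a NextSeq 500. Raw counts were deposited by the authors, 1 whole number per gene line and library. The methods name TopHat and cufflinks, and the submitters' processing notes name Bowtie2, edgeR and build mm10. The counting step, annotation, use of strand and use of molecular identifiers are not given in the sources used here.

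Sample titles gave the groups. Counts were compared by edgeR 4.0.16 (R 4.3.3, quasi-likelihood test, older dispersion estimate), with TMM scaling, filterByExpr, tissue as the only term, a prior count of 2 and Benjamini-Hochberg adjustment over 9347 genes. It stands in for cufflinks, which needs alignments, not used here. Symbols on more than 1 line (35) were kept as separate lines. The SE is the size of the log2 fold change over the square root of F. Alternatives were DESeq2 1.42.0, limma-voom 3.58.1, edgeR's newer dispersion estimate, RLE or library-size scaling, other low-count filters, a replicate block, each library left out, other denominators of the summed share and, chosen after seeing the data, DESeq2 on every line with a count. The scripts were tested on simulated data. The self-test values are not reported. Intervals are Wilson (95%), except that of the Gys1 count ratio, which is an exact binomial interval (95%) turned into a ratio. The floor was 3 counts. Python 3.11.15 and SciPy 1.17.1 gave the exact tests, GENCODE M21 (GRCm38) the positions and BLAST 2.17.0 the 3′-end matches.

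The enzymes and lists were chosen with earlier results of these data known. All 42 enzymes are named. Statistics are given for those with an adjusted p under 0.05, for the 12 with the smallest p among those without overlap and at 10 CPM or more in the higher group, and for tested isoenzymes of Hk, Pfk, Pfkfb, Ldh and Pdk. From each other list, up to 6 called genes are named, or else the 3 with the smallest p.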

Additional observations from a re-analysis of the deposited data

How the results depend on the processing

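Of the 32 tested enzymes, 18 kept their direction under every alternative (Aldoa, G6pdx, Gbe1, Gpi1, Gys1, Ldha, Ldhb, Pdhb, Pdk1, Pdk2, Pdk3, Pfkfb2, Pfkfb3, Pgam1, Pgm1, Pkm, Rpia and Tigar) and 14 did not. All of the 18 but Pdhb and Pdk2 had no overlap between the tissues. Leaving out a library can hardly turn the direction of such genes, so the kept direction adds no support. The share over all genes was not counted. The number called, 0 in the main test, was 3 with DESeq2, 1 with edgeR's newer dispersion estimate, 4 with DESeq2 on every line with a count (Eno3 beside Pdk1, Pgm1 and Gys1) and 0 to 2 with a library left out (Gbe1 and Pfkp without brain EC 1, Pfkfb3 without brain EC 2). Calls over all genes, 57 in the main test, numbered 807 with DESeq2, 1259 with DESeq2 on every line, 305 with the newer dispersion, 326 without a filter, 141 at 10 counts in every library, and 740, 701, 80 and 97 without brain EC 1, brain EC 2, dura mater EC 1 and dura mater EC 2. With a library left out, the lone library is assumed to vary like the pair. The median log2 fold change, 0.55 beside -0.01 for all genes, was 0.69 beside 0.28 with limma-voom, 0.20 beside -0.06 at 10 counts in every library, and 0.70 beside 0.25 with the replicate number of the titles as a replicate block, which called 0 enzymes and 224 genes. With a library left out it ran from 0.50 to 1.29. Without brain EC 1 it was 1.10 beside 1.03 for all genes, so that little difference from all genes was left, and without brain EC 2 it was 1.29 beside 0.95. Same-numbered libraries did not deviate together across genes (correlation -0.0153). With libraries of one tissue this unlike, that value cannot show whether the numbers pair the samples.

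The log2 fold change of Tpi1 turned from -0.99 to 1.79 with limma-voom and 1.72 with the replicate block, and that of Pgls from 0.05 to -0.01 with the newer dispersion and -0.01 with DESeq2 on every line. With a library left out, values ran from -1.45 to 0.21 for Hk1, -0.33 to 2.13 for Pfkl, -3.66 to 0.70 for Pfkm, -0.10 to 7.54 for Pfkp, -2.05 to 5.49 for Tpi1, -0.12 to 1.63 for Gapdh, -0.63 to 1.66 for Pgk1, -1.90 to 5.29 for Eno2, -0.28 to 0.42 for Pdha1, -1.12 to 1.53 for Pgls, -3.0 to 4.48 for Pgd, -0.45 to 0.61 for Tkt, -0.75 to 0.17 for Taldo1 and -0.28 to 0.82 for Pygb. Differences in isoenzyme share, in percentage points, then ran from -0.0421 to 4.19 for Hk2, -31.5 to 29.9 for Pfkl, -21.1 to 6.82 for Pfkm, -22.7 to 38.5 for Pfkp, -8.92 to 0.141 for Aldoa and -1.05 to 0.265 for Pdk4. The cause of these changes beyond the smaller number of libraries was not tested. The difference in summed share kept its direction throughout. Both dura mater shares lay above both brain shares, so leaving out a library could not turn it, and this adds no support. The pseudocounts and low-value filter meant for normalized data were not run because these values are counts.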
